A study of Mus musculus with 22 samples.

Results

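The Agilent mouse array of this series carries 16194 probes whose target is given as an interval of a chromosome, with a strand, in place of a transcript accession. They were taken by that rule alone, as every non-control probe whose systematic name begins with a chromosome, and made up 29.1% of the 55681 non-control probes. The probes covered 3543 distinct intervals on 20 chromosomes, the 19 autosomes and X. There were 1 to 10 probes per strand of an interval, with a median of 3, and 8171 probes were written for the forward (F) strand and 8010 for the reverse (R) strand. For 13 probes of 3 intervals no strand was given. The intervals had a median length of 7304 bases and ran from 62 bases to 7128487 bases. Agilent designs name their lincRNA probes in this way, but the scanner files do not use that word for them, and the label was not checked against an annotation. Positions are those of the array design on the mouse build mm9. The scanner files hold no names for these transcripts and no probe sequences, so each is given by its interval, its strand and its probe.

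Long intergenic noncoding RNAs (lincRNAs) are transcripts that lie between protein-coding genes, are often spliced and carry a poly(A) tail, and encode no known protein. Many were first marked as stretches of the genome with the chromatin of an active transcription unit, and arrays were then designed with probes tiled over both strands of such stretches because the transcribed strand was not known. Some lincRNAs guide chromatin proteins or regulate neighbouring genes, while many have no known function, and as a class they are expressed at lower levels and in fewer cell types than coding transcripts.

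RNA came from FE1 cells, an immortal epithelial line from the lung of the transgenic Muta(TM)Mouse, after 24 h with Mitsui7, a multi-walled carbon nanotube. There were 5 arrays of control cells (0 µg/ml), 6 of the low dose (12.5 µg/ml, D1), 5 of the medium dose (25 µg/ml, D2) and 6 of the high dose (100 µg/ml, D3). All 22 samples were of this 1 cell line, cultured in serum-containing medium with epidermal growth factor, and the labels set the groups apart by dose alone. Sample RNA carried Cy5 and Universal Mouse Reference RNA, pooled from 11 mouse cell lines, was the Cy3 partner throughout, and dyes were not swapped. A value below is therefore a log2 ratio of sample to reference after loess normalisation, and a change is a difference of such ratios between groups. Any bias between the dyes remains in a comparison with the reference, and cancels in a change between groups. The sources do not tie arrays to single exposures or days. The study's methods describe fewer separate experiments than a group has arrays, so arrays of a group may share an experiment. The p-values treat arrays as independent and measure the spread between them, part of which may be technical. In bulk RNA a loss of expressing cells and a lower level per cell cannot be told apart.

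Of the 5 slides, slide 1 carried each group 2 times, slides 2 to 4 each group 1 time, and slide 5 a low and a high dose array. Detection means a sample (Cy5) signal over the background level set by negative control spots, and 23688 to 39139 probes were detected per array. Of the epithelial markers Krt8, Krt18, Krt19, Krt7, Cldn4 and Cldn7 were detected in at least 4 of the 5 control arrays, and Cdh1 and Epcam were not. All 7 mesenchymal markers were detected, whereas Sftpa1, Sftpb, Sftpc and Nkx2-1 of the 6 alveolar type II markers were not. Aqp5 and Ager of the 4 alveolar type I markers and Cdh5 and Tek of the 4 endothelial markers were not detected. Scgb1a1, the only club cell marker on the array, was detected. Of the leukocyte markers, 2 of the 3 on the array passed the detection level, and Adgre1 did not. Among the markers detected, Cldn4, Sftpd, Scgb1a1 and Ptprc were not well above background in control by the scanner's own mark. To see where each array stood, the mean signed shift from control over the 162 interval probes called at the high dose was computed after slide adjustment. It was 0.44 to 0.63 on the low dose arrays, 0.57 to 0.71 on the medium dose arrays and 0.78 to 0.89 on the high dose arrays. The probes and their signs were chosen by the high dose call on these same arrays. The place of the high dose arrays above the others therefore follows largely from that choice. Low dose replicate 1 (0.63) and low dose replicate 4 (0.62) thus lay within the range of the medium dose, and medium dose replicates 2 (0.62) and 4 (0.57) within that of the low dose. Replicates 1 and 2 named here share slide 1 and both replicates 4 share slide 2, and whether arrays of either slide were exchanged was not tested. All 4 were kept under their labels. Counts are also given without low dose replicate 1 and medium dose replicate 2, and without all 4, a setting chosen after seeing the data. Since the 4 were picked by their shift at these same probes, such counts describe how far the results rest on them and support nothing.

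Interval probes were detected less often than the other probes of the same array. On the control arrays 42.8% ± 17.0 (SD, n = 5) of interval probes were above the negative control level, against 61.2% ± 10.9 of the other 39487 probes. The share was 45.6% ± 12.6 (n = 6) at the low dose, 46.4% ± 9.71 (n = 5) at the medium dose and 49.9% ± 6.83 (n = 6) at the high dose. Over the 22 arrays the share of interval probes was lower by 17.0 percentage points on average, with differences between -24.3 and -11.0, and it was lower in 22 of 22 arrays (permutation test of signs, two-sided, p = 1e-05, the smallest that 100000 resamples can give). The same probes were read on every array, so this p-value measures only how steady the order was between arrays. In the Cy3 channel, which holds the reference pool, 52.9% ± 21.8 of interval probes were detected on the control arrays, against 69.7% ± 13.4 of the other probes.

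**Figure D1:**
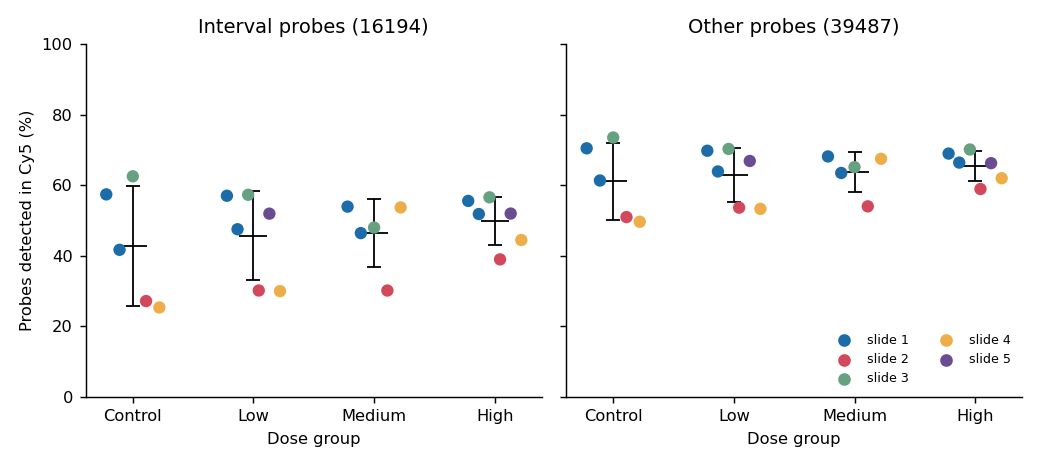
Share of probes (%) over the negative control level in Cy5 on each array (points, coloured by slide), for interval probes on the left and all other probes on the right, by dose group on the horizontal axis; bars give mean ± SD. Interval probes lie lower on every array, and control arrays on slides 2 and 4 reach only 27.1% and 25.3%.

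The share of interval probes detected overlapped between the dose groups. It varied from 25.3% to 62.5% between control arrays alone, with the low values on slides 2 and 4, and the test of the 4 groups gave p = 0.797 over all arrays and p = 0.532 within slides (permutation tests, adjusted over the 2 array measures). The median log2 ratio of the 7871 interval probes that passed detection on 4 or more arrays of some group was 0.051 ± 0.033 in control (SD, n = 5), 0.068 ± 0.018 at the low dose (n = 6), 0.056 ± 0.030 at the medium dose (n = 5) and 0.066 ± 0.029 at the high dose (n = 6). The groups overlapped and the permutation test gave an adjusted p of 0.797, and of 0.532 within slides. The number of interval probes detected on no control array and on every high dose array was 0, and the number detected on every control array and on no high dose array was also 0. The same 2 counts over all probes are not given here. A set of 2472 interval probes (15.3%) was detected on all 22 arrays, against 42.5% of the other probes. On no array 2193 interval probes (13.5%) were detected, and 10.8% of the other probes.

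Detection was described by strand as well. In at least 4 of the 5 control arrays 4274 interval probes (26.4%) were detected, which touched 1941 of the 3543 intervals and 2359 of the 4610 strands. Of 1067 intervals with probes for both strands, 418 had a detected probe on each strand, 455 on 1 strand only and 194 on neither. When 1 probe was detected, another probe for the same strand of that interval was detected in 44.6% of 16172 ordered pairs, and a probe for the opposite strand in 32.7% of 14658 pairs. Intervals under 1 kb had 22.2% of their 2485 probes detected in control, those of 1 to 10 kb 27.2% of 4129 and those over 10 kb 27.1% of 9580. Between chromosomes the share ran from 19.4% to 35.7%. These shares are descriptions, since probes of an interval share its transcripts.

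Set against the reference RNA with loess scaling, control FE1 cells differed at a smaller share of interval probes than of probes for annotated transcripts. Of 5359 interval probes detected in either channel, 367 (6.85%) differed by at least 2-fold at an adjusted p of at most 0.05, 127 higher and 240 lower in FE1 cells. Over all 28382 probes tested 15.1% were called, 4.56% higher and 10.6% lower, and the share was 18.6% for the 17324 probes of coding transcripts (NM accessions) and 15.95% for the 351 of noncoding transcripts (NR accessions). The split by direction moved with the scaling, from 127 higher and 240 lower with loess to 34 and 757 with median centring, 470 and 551 with the scanner's own log ratio, and 140 and 99 in the authors' series matrix. The median ratio of these probes was 0.039 with loess and -0.35 with median centring. The count moved too, since median centring called 791 of the 5359 interval probes and the scanner's log ratio 1021. Shares over all probes at those scalings are not given here, so the comparison of shares holds for loess alone. Signals were taken without background subtraction, and the part of weak signal in these shares was not tested.

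The lowest ratios among the probes detected in both channels on all 5 control arrays came from single probes of 5 intervals. Probe A_30_P01026968 (chr1:52706748-52712402 R) read -4.65, -4.01, -4.91, -4.88 and -4.25 on the control arrays, a slide-balanced log2 ratio of -4.69 ± 0.12 (SE), or 25.8-fold less in FE1 cells than in the reference (adjusted p = 1.34e-16). Probe A_30_P01021608 (chrX:102222494-102267068 R) read -4.28, -3.96, -4.61, -4.27 and -4.07, or -4.35 ± 0.095, and probe A_30_P01019507 (chr11:97457180-97487074 R) read -4.30, -3.73, -4.44, -4.47 and -3.96, or -4.27 ± 0.11. All 3 probes read far below the reference on every control array. On their strands, in the same order, 1 of 5, 1 of 3 and 2 of 7 probes were detected in at least 4 control arrays. These ratios are therefore readings of single probes. Probe A_30_P01029836 (chr5:92548501-92566401 F) was measured on 3 control arrays at -4.22, -3.60 and -4.27, or -4.22 ± 0.19. Probe A_30_P01027543 (chr1:175705225-175717250 R) was measured on 4 at -2.85, -2.79, -2.95 and -2.31, or -2.85 ± 0.15. The missing arrays carried outlier marks on those spots, and none of these 5 probes was called at any dose. On the strand of A_30_P01027543, however, 2 of 5 tested probes were called lower at the high dose. They were A_30_P01018824 (-0.71) and A_30_P01024163 (-0.85), and both were also called below the reference.

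At the other end, probe A_30_P01028856 (chr8:41934312-41945487 R) read 4.12, 2.86, 3.15, 2.49 and 2.33 on the control arrays, or 2.97 ± 0.24 (log2, SE), 7.82-fold above the reference (adjusted p = 2.09e-09). Probe A_30_P01029324 (chr19:53517903-53540753 R) read 2.92, 2.91, 3.26, 3.05 and 2.41, or 2.92 ± 0.10, and it also rose with Mitsui7, by 0.85 ± 0.13 (log2, SE, adjusted p = 0.000228) at the high dose. Probe A_30_P01022120 (chr13:22110479-22116629 R) read 4.04, 3.77, 2.49, 1.99 and 1.92, or 2.52 ± 0.13. These 3 were above the reference on every control array, with a wider spread for the first and the third. Probe A_30_P01021433 (chrX:98716130-98716340 R) read 3.09, 3.34, 1.16, 2.55 and 1.08, or 2.07 ± 0.16, and probe A_30_P01027811 (chr8:122712014-122732520 R) read 2.53, 2.31, 2.14 and 1.49 on 4 arrays, or 2.03 ± 0.14. The last of them changed by -0.77 ± 0.17 (log2, SE, adjusted p = 0.00636) at the high dose, with control and high dose arrays overlapping.

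Several of these ratios differed between slides. Of these same 7871 interval probes, 212 (2.69%) had a log2 ratio more than 1 higher on slide 1 than on slides 2 to 4, compared within dose groups, and 11 (0.140%) more than 1 lower. For the other detected probes the shares were 1.21% and 0.309%. In the 212 probes the sample signal (Cy5, centred on the array median) was higher on slide 1 by a median of 0.30 and the reference signal (Cy3) differed by a median of -0.97 on the log2 scale. Among the 127 interval probes called higher than the reference 22 were of this kind, probes A_30_P01022120 and A_30_P01021433 included, with ratios 1.70 and 1.40 higher on slide 1. The part of the slide in their level against the reference was not tested. Of the 162 interval probes called at the high dose 16 were also of this kind, 14 of the 61 rises and 2 of the 101 falls. The slide term of the model takes an offset that is equal in all groups out of the changes between doses. Whether the slide had a further part in these 16 calls was not tested.

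Mitsui7 changed few interval probes. At the low dose 55 of 6696 tested interval probes (0.821%) were differentially expressed, that is changed at least 1.5-fold with an adjusted p of at most 0.05 and were above background on 4 or more arrays of 1 of the groups. Of these 17 rose and 38 fell, where 3.21% of all 30652 tested probes were called, 1.3% higher and 1.91% lower. At the medium dose 84 of 6308 (1.33%) were called, 41 higher and 43 lower, against 5.54% of all probes, 2.65% higher and 2.89% lower. In the high dose group 162 of 7382 (2.19%) were called, of which 61 rose and 101 fell, against 7.46% of all probes, 3.28% higher and 4.18% lower. The 3 comparisons share the control arrays. In each of them the share of interval probes lay below the background. Without low dose replicate 1 and medium dose replicate 2 the counts were 40, 114 and 158, and without all 4 arrays named above 26, 144 and 162 (5 higher and 21 lower at the low dose, 86 and 58 at the medium dose).

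The split into rises and falls moved with the scaling. For the high dose it was 14 up and 64 down with median centring, 149 and 148 with the scanner's log ratio, and 61 and 75 in the series matrix. At the low dose median centring gave 1 higher and 16 lower, and at the medium dose it gave 9 and 20 and the scanner's log ratio 91 and 62. The median change of tested interval probes was 0.021 at the low dose, 0.0080 at the medium and 0.019 at the high dose, beside 0.0059, 0.0058 and 0.011 over all tested probes.

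For comparison, 10.8% of 18194 tested probes of coding transcripts were called at the high dose, 7.58% of 396 probes of noncoding transcripts with an NR accession, and 3.91% of 6311 remaining probes. Interval probes gave weaker signals: 62.2% of those tested had a mean log2 Cy5 signal under 7, against 23.2% of the coding probes. Within that lowest band 0.523% of interval probes and 3.19% of coding probes were called, and between 8 and 9 the shares were 4.67% of 578 and 14.6% of 2530. Between 10 and 12 they were 11.2% of 205 and 13.96% of 3731, and above 12 they were 10.1% of 109 and 12.3% of 2307. Between 9 and 10 they were 8.55% of 269 and 14.03% of 2253. Interval probes had the lower share in each of these bands, and no test was made of the difference.

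**Figure D2:**
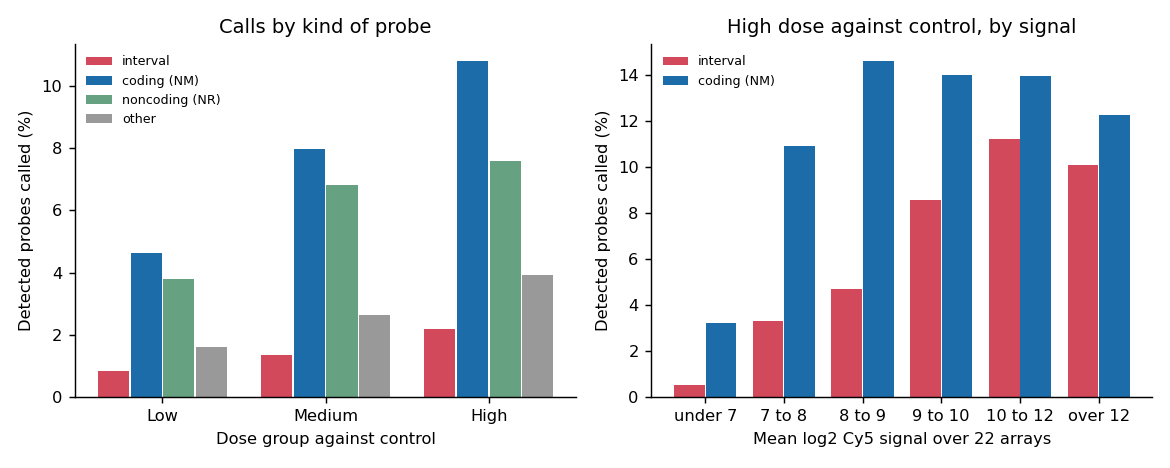
Percent of tested probes called at each dose against control, by kind of probe (left), and at the high dose by mean log2 Cy5 signal for interval and coding probes (right). Interval probes have the lowest bars at each dose, 0.821%, 1.33% and 2.19%, and the gap to coding probes is 11.2% against 13.96% for signals of 10 to 12.

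The 61 probes that rose at the high dose had median changes of 0.47 at the low dose, 0.63 at the medium and 0.73 at the high dose, the last chosen by the call. The 101 probes that fell had median changes of -0.51, -0.57 and -0.76. These medians share the same control arrays. Between doses, where no control array enters, 0 interval probes were called for the medium against the low dose (limma with Benjamini-Hochberg adjustment) and 367 of 7068 (5.19%) had an unadjusted p below 0.05, beside 0% called of all 31536 probes. For the high against the medium dose 0 were called and 300 of 7543 (3.98%) had such a p, beside 0% of 32613. For the high against the low dose 4 of 7711 were called (0.0519%), beside 0.239% of all 33098, and all 4 were lower at the high dose and lay in the same pair of intervals on chromosome 15. This count was 8 when replicate numbers, not slides, formed the block, 10 without low dose replicate 1, 7 (3 higher and 4 lower) without the 4 arrays named above, and 2 without low dose replicate 2 or without high dose replicate 3. With median centring it was 0.

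That pair, chr15:32167516-32174417 and chr15:32167516-32174427 on the reverse strand, had every tested probe called at each dose. The intervals share their start and differ by 10 bases at the end, so their 10 probes are not independent, and whether any of them target the same bases is not analysed here. For probe A_30_P01019556 the log2 ratio was 1.63, 1.24, 1.47, 1.21 and 1.09 on the 5 control arrays and 0.33, 0.17, 0.015, 0.23 and 0.061 on the 5 medium dose arrays. It lay between 0.069 and 0.55 (median 0.32) on the 6 low dose arrays and between -0.45 and -0.32 (median -0.35) on the 6 high dose arrays. Every treated array was below every control array, and the high dose arrays were below all low and medium dose arrays. The largest rises and falls named for each dose were picked among called probes without overlap of slide-adjusted values with control. A lack of overlap with control at those probes, here and below, follows largely from that choice.

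The change of this probe was -1.01 ± 0.097 (log2, SE, adjusted p = 2.71e-06) at the low dose, -1.17 ± 0.099 (log2, SE, adjusted p = 3.62e-07) at the medium dose and -1.68 ± 0.097 (log2, SE, adjusted p = 1.03e-09) at the high dose, a 3.2-fold fall at the last. Within the 4 slides that held both groups the high dose change ran from -1.84 to -1.43. At the high dose 5 of 5 tested probes of the longer interval and 4 of 4 of the shorter interval fell. Those of the longer interval changed by -1.68 to -1.54, and those of the shorter by -1.76 to -1.26.

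For probe A_30_P01029645 of the longer interval the log2 ratio was 1.73, 1.34, 1.61, 1.59 and 1.31 on the 5 control arrays and 0.53, 0.04, -0.001, 0.52 and 0.31 on the 5 medium dose arrays. It lay between 0.37 and 0.70 (median 0.53) on the 6 low dose arrays and between -0.28 and 0.064 (median -0.21) on the 6 high dose arrays. No treated array reached the control range. For probe A_30_P01023130 of the shorter interval the log2 ratio was 1.02, 1.26, 1.43, 1.14 and 1.48 on the 5 control arrays and -0.32, 0.093, -0.32, 0.43 and -0.13 on the 5 medium dose arrays. It lay between -0.21 and 1.01 (median 0.49) on the 6 low dose arrays and between -0.78 and -0.0046 (median -0.39) on the 6 high dose arrays. Here the low and medium dose arrays overlapped while the control arrays stood above all of them. The change from low to high dose was -0.67 ± 0.09 (adjusted p = 0.00308) for A_30_P01019556, -0.71 ± 0.099 (adjusted p = 0.00308) for A_30_P01029645, -0.77 ± 0.14 (adjusted p = 0.0162) for A_30_P01023130 and -0.66 ± 0.13 (adjusted p = 0.0328) for A_30_P01019643. For A_30_P01033043 of the longer interval it was -0.56 ± 0.12 (adjusted p = 0.0619), which did not pass, although the probe changed by -1.60 ± 0.13 (log2, SE, adjusted p = 9.33e-08) against control. The opposite strand of the 2 intervals had 1 tested probe each, which changed by -0.32 and -0.40, and 0 were called.

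**Figure D3:**
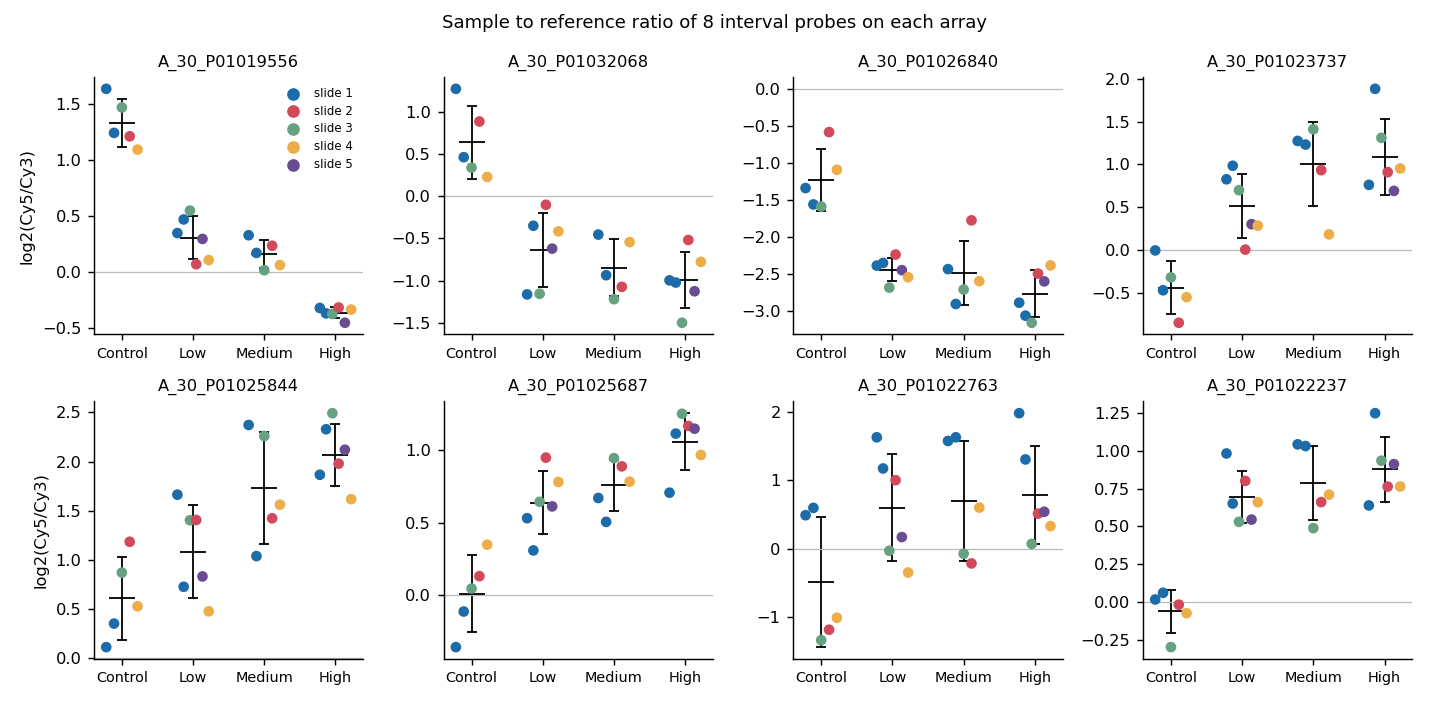
Log2 ratio of sample to reference on each array (points, coloured by slide) for 8 interval probes, by dose group, with mean ± SD (bars) and a line at 0. In A_30_P01019556, A_30_P01032068 and A_30_P01026840 all treated arrays lie below the control arrays, in A_30_P01023737 and A_30_P01022237 above them, and in A_30_P01022763 slide 1 lies above the other slides in every group.

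On the X chromosome, the reverse strand of chrX:50400250-50410825 fell at each dose. For probe A_30_P01032068 the log2 ratio was 1.28, 0.46, 0.34, 0.89 and 0.23 on the 5 control arrays and -0.45, -0.94, -1.22, -1.07 and -0.54 on the 5 medium dose arrays. It lay between -1.16 and -0.10 (median -0.52) on the 6 low dose arrays and between -1.501 and -0.52 (median -1.01) on the 6 high dose arrays. Control and treated arrays did not overlap. Its change was -1.26 ± 0.19 (log2, SE, adjusted p = 0.000407), -1.49 ± 0.19 (log2, SE, adjusted p = 5.33e-05) and -1.62 ± 0.19 (log2, SE, adjusted p = 8.13e-06) from the low to the high dose, 3.07-fold at the last. Probe A_30_P01021240 of the same strand changed by -1.65 ± 0.18 (log2, SE, adjusted p = 3.38e-06) at the high dose, again without overlap. Its signal was weak, and the scanner marked it well above background on 4 of 5 control arrays but 1 of 6 high dose arrays. Of 5 tested probes of this strand 4 fell at the high dose, and the 2 tested probes of the opposite strand changed by 0.090 and 0.22.

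A further fall lay on the forward strand of chr16:90038086-90127636. For probe A_30_P01026840 the log2 ratio was -1.34, -1.56, -1.59, -0.59 and -1.09 on the 5 control arrays and -2.44, -2.91, -2.71, -1.78 and -2.60 on the 5 medium dose arrays. It lay between -2.69 and -2.24 (median -2.42) on the 6 low dose arrays and between -3.16 and -2.39 (median -2.75) on the 6 high dose arrays. The control arrays were above all treated arrays, and the treated groups overlapped. The change was -1.23 ± 0.13 (log2, SE, adjusted p = 7.74e-06), -1.25 ± 0.13 (log2, SE, adjusted p = 4.73e-06) and -1.55 ± 0.13 (log2, SE, adjusted p = 1.06e-07), or 2.93-fold lower at the high dose. The other tested probe of this strand was also called, with a change of -1.13, while the 7 tested probes of the opposite strand changed by -0.37 to 0.30 with 0 calls.

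Other strands fell by a smaller amount at all of their probes. On chr7:128341797-128414692 R the median over 5 probes was 1.13, 0.95, 1.11, 1.13 and 1.06 on the control arrays and 0.53, 0.51, 0.44, 0.55 and 0.39 on the medium dose arrays. Low dose arrays lay between 0.42 and 0.91, and high dose arrays between 0.075 and 0.53. All 5 probes fell at the high dose, with changes of -1.02 to -0.63, 3 of 5 were called at the medium dose and 0 at the low dose, where the changes were -0.37 to -0.19. Control arrays were above all treated arrays. On chr1:175654606-175672031 R the median over 5 probes was -1.22, -1.13, -1.14, -0.90 and -1.07 on the control arrays and -1.64, -1.73, -1.68, -1.08 and -1.73 on the medium dose arrays. Low dose arrays lay between -1.98 and -1.36, and high dose arrays between -2.18 and -1.79. Medium dose replicate 4 lay within the control range and the other treated arrays below it. Again 5 of 5 were called at the high dose, with changes of -1.09 to -0.59, whereas 1 of 5 was called at the low and 0 at the medium dose. The opposite strands of both intervals had 3 and 0 tested probes with 0 calls.

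**Figure D4:**
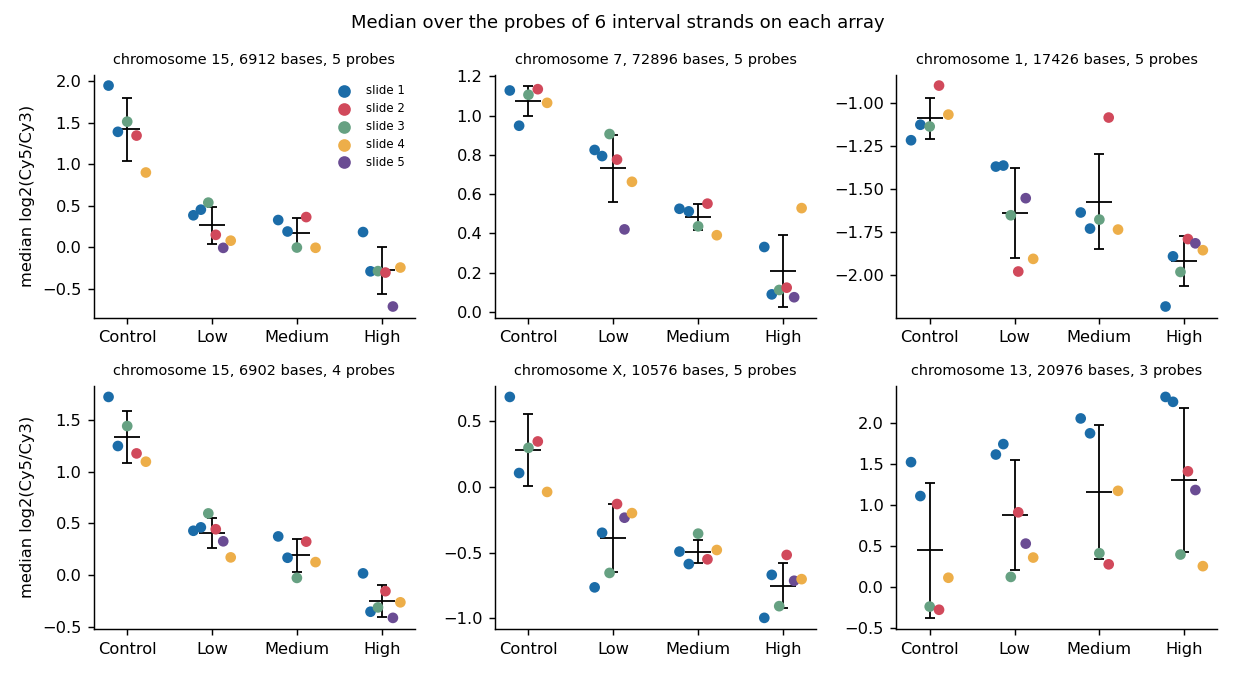
Median log2 ratio over the tested probes of the 6 interval strands with the most probes called one way at the high dose, on each array (points, coloured by slide), with mean ± SD (bars) by dose group; the last panel is 1 of 6 strands tied at 3 calls, 3 rising and 3 falling, and has the largest median change of them. Medians fall from control to high dose in 5 panels, for example from a mean of 1.08 to 0.21 on chromosome 7, and rise in the panel of chromosome 13, where arrays of slide 1 lie high in every group.

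The largest rise came from the 1 probe of chr13:21856097-21859200 on the reverse strand. For probe A_30_P01023737 the log2 ratio was -0.0047, -0.47, -0.32, -0.85 and -0.55 on the 5 control arrays and 1.28, 1.23, 1.41, 0.93 and 0.18 on the 5 medium dose arrays. It lay between 0.005 and 0.98 (median 0.50) on the 6 low dose arrays and between 0.69 and 1.88 (median 0.93) on the 6 high dose arrays. Every treated array was above every control array. The change was 1.02 ± 0.17 (log2, SE, adjusted p = 0.00119) at the low dose, 1.45 ± 0.17 (log2, SE, adjusted p = 2.16e-05) at the medium dose and 1.59 ± 0.17 (log2, SE, adjusted p = 2.7e-06) at the high dose, 3-fold at the last, and it was 1.504 to 1.76 within the 4 slides. The interval has 1 probe, so its strand has no other reading.

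Both probes of chr10:118427606-118430070 R rose. For probe A_30_P01025844 the log2 ratio was 0.11, 0.35, 0.87, 1.19 and 0.53 on the 5 control arrays and 2.37, 1.04, 2.26, 1.42 and 1.56 on the 5 medium dose arrays. It lay between 0.48 and 1.66 (median 1.12) on the 6 low dose arrays and between 1.62 and 2.49 (median 2.05) on the 6 high dose arrays. The high dose arrays were above all control arrays, while the low dose arrays overlapped them. The change was 0.49 ± 0.23 (log2, SE, adjusted p = 0.34) at the low dose, which was not called, 1.12 ± 0.23 (log2, SE, adjusted p = 0.00505) at the medium dose and 1.48 ± 0.23 (log2, SE, adjusted p = 0.000185) at the high dose. For A_30_P01026564 the high dose change was 1.14 ± 0.23 (log2, SE, adjusted p = 0.00204), with every high dose array above the control arrays.

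A rise with little spread was seen on the forward strand of chr15:61984389-62102500. For probe A_30_P01025687 the log2 ratio was -0.36, -0.12, 0.043, 0.13 and 0.35 on the 5 control arrays and 0.67, 0.50, 0.95, 0.89 and 0.78 on the 5 medium dose arrays. It lay between 0.31 and 0.95 (median 0.63) on the 6 low dose arrays and between 0.71 and 1.25 (median 1.13) on the 6 high dose arrays. The medium and high dose arrays were above all control arrays, and the lowest low dose array was just under the highest control array. The changes were 0.62 ± 0.099 (log2, SE, adjusted p = 0.000745), 0.75 ± 0.10 (log2, SE, adjusted p = 8.04e-05) and 1.05 ± 0.099 (log2, SE, adjusted p = 5.83e-07). Of the 7 tested probes of this strand 2 were called at the high dose, and the changes ran from -0.032 to 1.05 over this interval of 118112 bases.

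For the reverse strand of chr12:82457625-82476325 the groups overlapped until the slide was taken into account. For probe A_30_P01022763 the log2 ratio was 0.49, 0.60, -1.34, -1.19 and -1.01 on the 5 control arrays and 1.58, 1.63, -0.076, -0.22 and 0.60 on the 5 medium dose arrays. It lay between -0.35 and 1.63 (median 0.59) on the 6 low dose arrays and between 0.069 and 1.99 (median 0.53) on the 6 high dose arrays. The arrays of slide 1 were higher by 1.44 than those of slides 2 to 4 in the same dose group. With the slide term the change was 1.16 ± 0.20 (log2, SE, adjusted p = 0.00136), 1.20 ± 0.20 (log2, SE, adjusted p = 0.00075) and 1.35 ± 0.20 (log2, SE, adjusted p = 9.76e-05), and within slides the high dose change was 1.10 to 1.70. Without the slide term it was 1.28 at the high dose and not called.

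The interval chr17:35080914-35090009 rose on both strands. For probe A_30_P01022237 (R) the log2 ratio was 0.017, 0.061, -0.30, -0.017 and -0.073 on the 5 control arrays and 1.04, 1.03, 0.49, 0.66 and 0.71 on the 5 medium dose arrays. It lay between 0.53 and 0.98 (median 0.66) on the 6 low dose arrays and between 0.64 and 1.25 (median 0.84) on the 6 high dose arrays. All treated arrays were above all control arrays. The change was 0.77 ± 0.11 (log2, SE, adjusted p = 0.0002) at the low dose and 0.95 ± 0.11 (log2, SE, adjusted p = 5.3e-06) at the high dose. Probe A_30_P01022072 of the forward strand changed by 0.86 ± 0.15 (log2, SE, adjusted p = 0.00182) at the low and 0.91 ± 0.15 (log2, SE, adjusted p = 0.000381) at the high dose, with slide 1 higher by 2.07. At the high dose 2 of 7 tested probes on each strand were called, and the changes of the others reached down to 0.052 on the forward and 0.020 on the reverse strand.

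Other named rises lay on chromosomes X, 4 and 13. Probe A_30_P01022936 (chrX:65756325-65757543 F) changed by 0.62 ± 0.17 (log2, SE, adjusted p = 0.0479), 1.08 ± 0.17 (log2, SE, adjusted p = 0.000448) and 0.90 ± 0.17 (log2, SE, adjusted p = 0.00127), with all medium dose arrays above the control arrays. Probe A_30_P01024929 (chr4:146507925-146532650 R) changed by 0.54 ± 0.16 (log2, SE, adjusted p = 0.0655), 0.85 ± 0.16 (log2, SE, adjusted p = 0.00213) and 0.68 ± 0.16 (log2, SE, adjusted p = 0.00747), and 5 of 5 probes of its strand were called at the medium dose and 3 of 5 at the high dose. Probe A_30_P01022640 (chr4:131734714-131742542 F) changed by 0.70 ± 0.18 (log2, SE, adjusted p = 0.034) at the low dose, and this call was lost under 20 of the alternatives tried. Its ratio was 2.70 higher on slide 1 than on slides 2 to 4, the largest such offset of the named probes. On chr13:94182877-94203852 F 3 of 3 tested probes rose at the high dose, with changes of 0.73 to 1.01, and the interval lies in a stretch with 7 other overlapping intervals of its strand.

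Calls at several probes of an interval were then counted by strand. The 162 probes called at the high dose lay on 106 strands of 103 intervals, which merge into 94 stretches once intervals that overlap on a strand are joined. On 37 strands 2 or more probes were called the same way, 15 higher and 22 lower, and on 0 strands were probes called in both directions. At the medium dose 16 of 55 called strands had 2 or more such probes, and at the low dose 7 of 42. The low dose count was 3 without control replicate 3, 4 without control replicate 4 or without low dose replicate 4, 12 without control replicate 5 and 12 with replicate numbers as the block. The medium dose count was 9 without medium dose replicate 5, and median centring gave 3, 5 and 17 strands for rising doses. The high dose count of 37 also moved, to 18 without the slide term, 23 without slide 1, 2 on slide 1 only and 63 with the scanner's log ratio. Each probe called at the high dose was then set beside the other tested probes of its interval, where a pair of called probes enters from both sides. On the same strand 451 of 475 partners (94.9%) changed in the same direction and 172 (36.2%) were called with it, with a median partner change of 0.51 in that direction. On the opposite strand 225 of 283 (79.5%) changed in the same direction and 14 (4.95%) were called with it, with a median of 0.14. Among all tested interval probes 55.7% had a change above 0 and 2.19% were called. The first share cannot be set against the agreement of partners, since more called probes fell than rose. Partners were measured on the same arrays as the called probe, and intervals with many probes enter many pairs. The shares of partners are therefore descriptions.

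**Figure D5:**
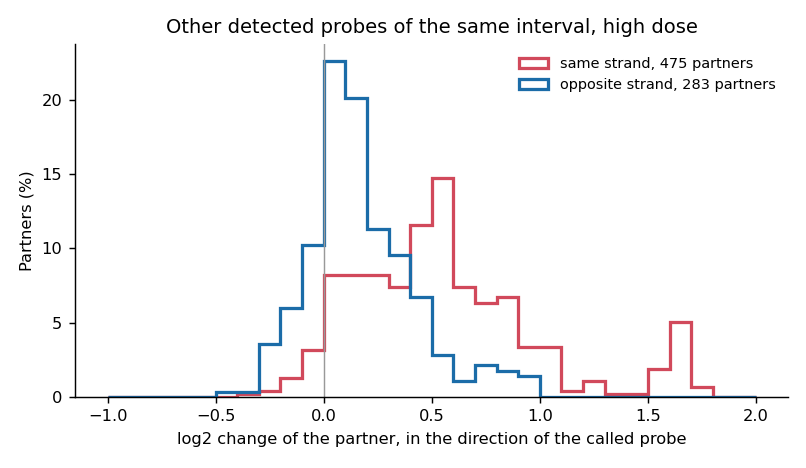
Log2 change at the high dose of the other tested probes of an interval with a called probe, signed so that values above 0 go in the direction of the called probe (horizontal axis), as percent of partners (vertical axis), for 475 partners on the same strand and 283 on the opposite strand. Same-strand partners have a median of 0.51 and opposite-strand partners a median of 0.14.

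Called probes were spread over the genome. Each of the 20 chromosomes held at least 1 probe called at the high dose, and the share of tested probes called ran from 0.323% to 4.91% between chromosomes. Of the 94 stretches 20 lay within 1 Mb of another called stretch. Intervals under 1 kb had 1.26% of 949 tested probes called, those of 1 to 10 kb 2.93% of 1944 and those over 10 kb 2.07% of 4489.

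For each named probe the gene with the most similar pattern was sought among 18674 detected gene probes, by Pearson's r of the slide-adjusted log2 ratio over arrays, as a description. The values share the dose groups, the slides and the reference, and the best of many candidates is high by construction. For A_30_P01019556 the most similar was Zfp467, a zinc finger gene (r = 0.98, n = 20 arrays), and for A_30_P01033043 of the same locus it was Fkbp14, a prolyl isomerase of the endoplasmic reticulum (r = 0.99, n = 22 arrays). The chromosome X probe A_30_P01021240 was most like Slc1a3, a glutamate transporter (r = 0.95, n = 22 arrays), and the chromosome 16 probe A_30_P01026840 most like Mgst1, a microsomal glutathione transferase (r = 0.98, n = 22 arrays). Among the rises A_30_P01025687 was most like Ppp1r15a, a phosphatase subunit of the integrated stress response (r = 0.98, n = 22 arrays), A_30_P01023737 most like Eif1a (r = 0.93, n = 22 arrays), A_30_P01025844 most like Car6, a secreted carbonic anhydrase (r = 0.97, n = 22 arrays), and A_30_P01022237 most like Ndrg1 (r = 0.96, n = 22 arrays). The chromosome 12 probe A_30_P01022763 was most like Eif2s1, a translation initiation factor on the same chromosome (r = 0.95, n = 22 arrays). Over the 156 called probes measured on at least 20 arrays, the most similar gene lay on the same chromosome as the interval for 15 (9.62%), where on average 5.36% of the gene probes did.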

How the data were processed

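Dual-channel scanner files of 22 arrays were read. Per the file headers, red and green median signals are linear intensities from Agilent Feature Extraction 10.7.3.1 (3 µm scan, probe positions on mm9), before normalisation between arrays. The same deposited files hold outlier marks and the scanner's log10 ratio, background-corrected and dye-normalised by that software and exactly 0 for 25.9% of spots. The deposited series matrix holds the authors' log2 ratios, whose normalisation is not given in the sources used here (column medians 0.00433 to 0.0267, lowest correlation with the ratios computed here 0.840, median 0.985).

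Median intensities were taken to log2 and loess-normalised within each array without background subtraction. Spots with outlier marks were set to missing, and the median was taken over the spots of a probe. Detection required a signal above the trimmed mean (5%) of 308 negative control spots plus 3 SD, and 23688 to 39139 probes passed per array. Precision is limited by how many arrays there are and by how many separate experiments they come from. All 55681 non-control probes were fitted with limma 3.58.1 (R 4.3.3) with group and slide as terms over the 22 arrays, in place of the study's shrinkage test, with Benjamini-Hochberg adjustment across them. Differential expression meant an adjusted p no higher than 0.05, a change of 1.5-fold (2-fold against the reference) and detection on 4 or more arrays of 1 of the groups. The scripts were tested on simulated data. No pair of arrays was a duplicate, since at most 2.36% of spots had equal Cy5 signals.

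Named probes were the 5 largest rises and falls per dose without overlap of slide-adjusted values, the 6 strands with most calls at the high dose, every probe called between doses, and the 5 highest and lowest against the reference detected in both channels on all control arrays. Members and lists were chosen with earlier results of these data known. Replicate numbers were checked for pairing: deviations from group means of the 31 same-numbered pairs correlated at 0.178 to 0.817, and at 0.272 to 0.503 for the 4 such pairs on different slides. All but these 4 pairs shared a slide, so number and slide could not be told apart for most pairs. Arrays on the same slide correlated at a median of 0.41, and arrays that shared neither at -0.18. The numbers were taken to pair the arrays, but the main fit had a slide term and none for the number. Its p-values leave aside any pairing beyond the slide, and blocking by number is given as an alternative. Alternatives changed the slide term, scaling, background, filters and thresholds, and left out slides and arrays.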

Additional observations from a re-analysis of the deposited data

Results flagged for a closer look

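A search for a single array far from the rest of its dose group covered 142 groups of arrays, and 3 of them held such an array. Chance alone flags about 1 group in 20, which is more than were flagged here. High dose replicate 1 read 0.36 at probe A_30_P01019643 (chr15:32167516-32174417 R), where the other 5 high dose arrays lay between -0.48 and -0.19. The same array read -2.01 at probe A_30_P01021240 (chrX:50400250-50410825 R), where the others lay between -1.33 and -0.99. For chr1:175654606-175672031 R the median log2 ratio of medium dose replicate 4 was -1.08, while the other 4 medium dose arrays lay between -1.73 and -1.64.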

How the results depend on the processing

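Against control the interval probes called numbered 55 (low dose), 84 (medium dose) and 162 (high dose), with 4 for the high against the low dose and 367 for control against the reference. Without the slide term these counts were 33, 49, 105 and 2 for the comparisons of doses. On slide 1 only, with 2 arrays a group, they were 0, 0, 11 and 0. Median centring gave 17, 29, 78 and 0, and 791 against the reference. The scanner's log ratio gave 91, 153 and 297 against control and 1021 against the reference, and the series matrix 239 against the reference. A 2-fold threshold gave 11, 17, 31 and 0, and no fold threshold 124, 200, 389 and 9, and 2379 against the reference. Fitting only the groups compared gave 36 at the low dose and 2 for high against low. The low dose count was 34 without slide 2 and 29 without slide 3, and the high against low count 2 without slide 1 and 2 without slide 3. Blocking by replicate number, not slide, gave 66, 108, 199 and 8, and this pairing also moved the low dose count of strands with 2 or more calls from 7 to 12. Without low dose replicate 1 and medium dose replicate 2 the high against low count was 10. Without low dose replicates 1 and 4 and medium dose replicates 2 and 4, a setting chosen after seeing the data, the counts were 26, 144, 162 and 7, and 368 against the reference.

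Leaving out 1 array at a time gave 30 to 68, 61 to 113 and 136 to 174 calls for rising doses against control, 2 to 10 for high against low and 323 to 395 against the reference. The lowest low dose count, 30, came without control replicate 3. The counts of strands with 2 or more calls were 3 to 12, 9 to 23 and 29 to 41 in these fits. The counts for medium against low and high against medium were 0 in all 21 settings and 0 in all 22 fits without an array. The test over dose groups gave p from 0.532 to 0.915 for the percent detected over 8 settings and from 0.117 to 0.938 for the median ratio over 9, where spots with outlier marks counted in the share and leaving them out was the alternative. Over 44 results of named probes and 1852 alternatives 103 calls were lost, 31 of them on slide 1 only, and 0 changed sign. The cause was not tested. Of the interval probes tested at the high dose 62.2% had a mean log2 signal under 7, and the part of signal in the counts was not tested.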
